A study of Mus musculus with 12 samples.

Results

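The genes described here are those of 4 guidance systems: the Eph receptors with their ephrins, the semaphorins with their plexins and neuropilins, the slits with their robos, and the netrins. They were chosen by symbol in the platform annotation, namely Epha, Ephb, Efna, Efnb, Slit, Robo or Ntn with a number, Sema or Plxn with a number or a letter and number, and Nrp1 and Nrp2. This gave 155 of the 45281 probes of the table, for 60 genes, and 1 further probe that carried 2 symbols was left out. Of these genes 41 had a probe above background on at least 4 of the 12 arrays and were tested among 11297 genes, and 19 were not tested.

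RNA levels were read with 1-colour Illumina bead arrays for mouse, in 12 pools of 3 female mice each at postnatal day 3, 4 pools per group. The cKO vagina came from mice with Trp63 flox/floxt and Pax2-cre (spelled so in the labels), in which both Trp63 copies were floxed. The cHet vagina and the cHet uterus came from Trp63 flox/wt mice with Pax2-cre, which kept 1 normal copy. All groups carried the Cre transgene, at least 1 floxed copy and a mixed background of C57BL/6, S129/5 and CD-1, so no group was wild type. Pax2 is expressed in the epithelium of the Müllerian and Wolffian ducts. The RNA was labelled by organ, with no separation of cell types named. Whether the pools came from separate litters is not stated, so p-values here speak of variation among pools alone. Levels are log2 of the normalised intensity, every difference is of such levels, and every adjusted p is from limma with Benjamini-Hochberg adjustment over all genes tested, unless another setting is named.

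Ephrins are ligands held in the cell membrane, by a lipid anchor in class A and by a transmembrane stretch in class B, and their Eph receptors are tyrosine kinases, so that signals need touching cells and can run both ways. Class 3 semaphorins are secreted and act through a neuropilin joined to a plexin, while most others are membrane proteins that bind plexins directly. Slits are secreted ligands of robos, and netrins are secreted relatives of laminin. They were first known for steering axons, and they also shape vessels, epithelia and the ducts of the urogenital tract.

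Arrays within a group correlated at 0.972 to 0.991 across genes. The median intensity of an array lay between 72.3 and 93.9, and an array had 39.3% to 48.2% of its probes above background. Replicates 1 and 2 lay apart from replicates 3 and 4, and 1380 genes, or 12.2%, differed between these 2 sets, so values within each set are given where they bear on a result. Of the 41 guidance genes 6 differed between the sets, namely Sema5a, Epha5, Sema3c, Sema6d, Sema6a and Robo2, all higher in replicates 3 and 4. Trp63 stood at log2 9.07 to 9.91 in cKO vagina, 9.36 to 9.75 in cHet vagina and 4.53 to 4.76 in cHet uterus, which sets the organs apart. Its probe may lie outside the deleted part and so checks neither the deletion nor the genotype labels. Trp63 aside, the markers of the vagina or distal tract (Krt5, Krt14, Hoxa13, Hoxd13 and Isl1) were all higher in cHet vagina than in cHet uterus. Of the 4 uterus markers tested Hoxa11 and Hoxd10 were lower in cHet vagina, Foxa2 was higher there, and Wnt7a was not called.

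The array files hold no sequence, and the sequences shown are the 250 bases upstream of the annotated start, read 5′ to 3′ on the gene's strand from RefSeq on GRCm38.p6, for 5 genes on which the comparisons turn. Sema3a and Slit3 were lower in vagina than in uterus, Sema4a and Epha3 were higher, and Sema4a and Robo1 had the lowest p of a semaphorin and of a robo between cKO and cHet vagina. Capitals mark matches on either strand to 4 motifs, namely the p53 family half-site, the core of Runx sites TGTGGT, the GC box GGGCGG and TATAAA, and matches of different motifs did not overlap. The windows are chr5:13396534-13396783 (plus strand) for Sema3a, chr11:35121206-35121455 (plus) for Slit3, chr3:88461183-88461432 (minus) for Sema4a, chr16:63864176-63864425 (minus) for Epha3 and chr16:72662899-72663148 (plus) for Robo1. For Sema4a, which has 4 windows in the table, the one farthest upstream is shown.
Sema3a: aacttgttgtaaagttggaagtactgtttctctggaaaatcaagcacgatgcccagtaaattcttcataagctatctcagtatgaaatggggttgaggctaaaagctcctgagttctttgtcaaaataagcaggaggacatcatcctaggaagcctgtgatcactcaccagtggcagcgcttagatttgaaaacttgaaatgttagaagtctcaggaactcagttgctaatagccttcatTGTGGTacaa
Slit3: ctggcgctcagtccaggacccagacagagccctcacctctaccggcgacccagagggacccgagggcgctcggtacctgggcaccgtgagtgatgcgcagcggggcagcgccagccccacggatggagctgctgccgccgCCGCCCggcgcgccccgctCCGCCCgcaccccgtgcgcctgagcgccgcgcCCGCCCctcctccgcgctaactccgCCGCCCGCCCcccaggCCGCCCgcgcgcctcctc
Sema4a: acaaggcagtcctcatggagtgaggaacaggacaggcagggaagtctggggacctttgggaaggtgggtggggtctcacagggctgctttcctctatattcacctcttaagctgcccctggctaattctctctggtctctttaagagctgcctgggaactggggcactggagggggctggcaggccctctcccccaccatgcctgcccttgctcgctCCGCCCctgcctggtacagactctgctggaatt
Epha3: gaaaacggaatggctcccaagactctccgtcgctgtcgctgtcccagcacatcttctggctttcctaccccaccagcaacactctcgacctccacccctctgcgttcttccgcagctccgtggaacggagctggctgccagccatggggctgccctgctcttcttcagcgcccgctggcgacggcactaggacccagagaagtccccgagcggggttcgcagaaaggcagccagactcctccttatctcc
Robo1: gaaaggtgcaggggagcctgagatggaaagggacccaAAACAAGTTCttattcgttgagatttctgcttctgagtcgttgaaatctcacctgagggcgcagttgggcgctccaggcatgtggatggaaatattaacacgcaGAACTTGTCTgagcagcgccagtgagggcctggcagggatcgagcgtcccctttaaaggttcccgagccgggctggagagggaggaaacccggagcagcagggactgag
The Robo1 window held 2 half-sites and no other match, and the Slit3 window held 6 GC boxes and 35 CG dinucleotides. The Sema3a window was poor in CG, with 2, and held 1 TGTGGT, the Sema4a window held 1 GC box, and the Epha3 window held none of the motifs. A half-site lay in 7.13% of the 32851 windows of this length in the table, TGTGGT in 14.0%, GGGCGG in 32.7% and TATAAA in 12.4%. Of the 38 tested guidance genes whose windows were searched, 4 held a half-site, 6 held TGTGGT, 27 held GGGCGG and 2 held TATAAA. A gene was counted if any of its windows matched, and some have over 1, so these counts are not comparable with the shares of single windows. These matches describe the letters of the windows, and binding was not measured.

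Setting cKO against cHet vagina shows which of these genes differ when both Trp63 copies are floxed. By limma 0 of the 41 genes were called at an adjusted p under 0.05, against 43 of all 11297 genes, or 0.381% (0.0531% higher and 0.328% lower in cKO vagina). The unadjusted p was under 0.05 for 4 guidance genes, Sema4a and Sema6a lower and Nrp2 and Robo1 higher in cKO vagina, against 799 of all genes, or 7.07%. The differences ran from -0.65 to 0.44 on the log2 scale, with SEs of 0.12 to 0.41, and 39 of 41 lay within 0.5 of zero. In simulated data 11.9% of changes of 0.5 were recovered, so the lack of calls does not show that these genes were equal. Their median was -0.021, against -0.0084 over all genes. The groups did not overlap in 1 gene that was higher and 2 that were lower in cKO vagina, where 1.71% and 2.63% of all genes did so. The higher one, Nrp2, passed the filter on dim probes only through its cKO pools. In bulk tissue, fewer cells of a type and less RNA per cell cannot be told apart.

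**Figure D1:**
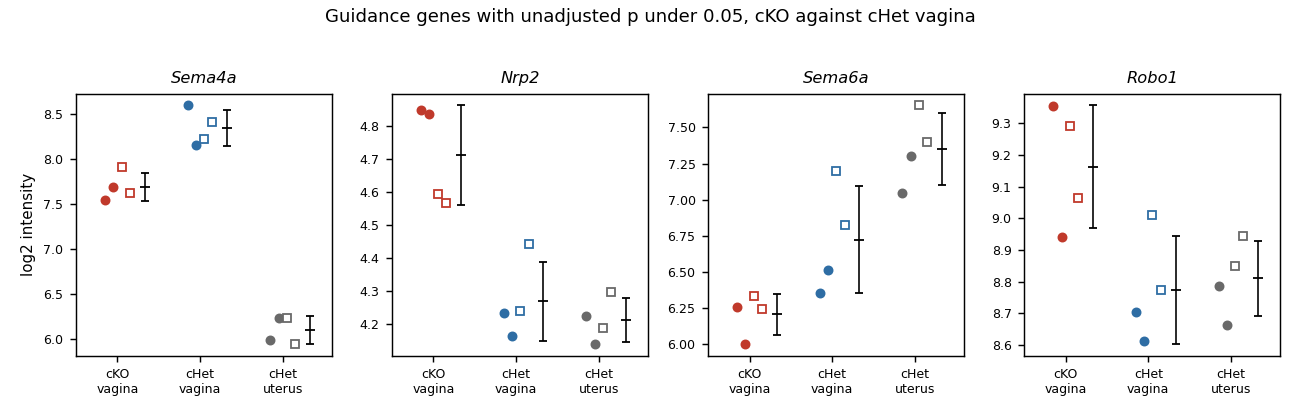
Log2 intensity per pool of the 4 guidance genes with an unadjusted p under 0.05 between cKO and cHet vagina, with cHet uterus at the right. Filled circles are replicates 1 and 2, open squares replicates 3 and 4, and the black bars give the mean and SD of 4 pools. The cKO pools of Sema4a lie between 7.55 and 7.91, each below the cHet vagina range, and those of Nrp2 lie between 4.57 and 4.85, each above the pools of both other groups.

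Sema4a, a membrane semaphorin that binds plexins of the B and D classes, came closest to the threshold. It stood at 7.55, 7.68, 7.91 and 7.62 in cKO vagina replicates 1 to 4, 8.59, 8.15, 8.21 and 8.40 in cHet vagina and 5.99, 6.23, 6.24 and 5.95 in cHet uterus. No cKO pool reached the lowest cHet vagina pool, and the uterus pools were lower still. The cKO minus cHet vagina difference was -0.65 (SE 0.14, adjusted p = 0.0564), a 1.57-fold lower level that did not pass the test. It was -0.76 in replicates 1 and 2 and -0.54 in replicates 3 and 4, and with these sets as a block the adjusted p was 0.0337. Without background correction it was 0.0357 and with an offset of 50 it was 0.0350, while over all 25 alternatives it ran from 0.0337 to 0.412.

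Nrp2, a co-receptor for class 3 semaphorins and for VEGF-C, had 4.85, 4.83, 4.59 and 4.57 in cKO vagina replicates 1 to 4, 4.23, 4.16, 4.24 and 4.44 in cHet vagina and 4.22, 4.14, 4.19 and 4.30 in cHet uterus. All cKO pools were above those of both other groups. The probe is dim, above background in 4 of 4 cKO pools, 1 of 4 cHet vagina pools and 0 of 4 cHet uterus pools. It passed the filter of 4 arrays only through the cKO pools, so its separation from the other groups is no independent support for a rise. Its difference from cHet vagina was 0.44 (SE 0.12, adjusted p = 0.211), which did not pass the test. Its size was 0.64 in replicates 1 and 2 and 0.24 in replicates 3 and 4.

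Robo1, a receptor for slits, stood at 9.36, 8.94, 9.29 and 9.06 in cKO vagina replicates 1 to 4, 8.70, 8.61, 9.01 and 8.77 in cHet vagina and 8.79, 8.66, 8.85 and 8.94 in cHet uterus. The lowest cKO pool lay below the highest cHet vagina pool, so the groups overlapped. The difference was 0.39 (SE 0.14, adjusted p = 0.466). Sema6a, a membrane semaphorin that binds plexins of class A and is named here after its values were seen, had 6.26, 6.00, 6.33 and 6.24 in cKO vagina replicates 1 to 4, 6.36, 6.51, 7.19 and 6.83 in cHet vagina and 7.05, 7.30, 7.65 and 7.40 in cHet uterus. Its cKO pools lay just below its cHet vagina pools (log2 difference -0.51, SE 0.18, adjusted p = 0.448). The difference was -0.30 in replicates 1 and 2 and -0.72 in replicates 3 and 4, and its other probes, which were dimmer, had 0.061 and 0.39.

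Among the ephrins, Efnb1, a class B ligand, had 5.81, 5.84, 6.93 and 6.52 in cKO vagina replicates 1 to 4, 6.73, 6.47, 6.73 and 6.68 in cHet vagina and 6.27, 7.44, 7.06 and 7.09 in cHet uterus. The cKO pools were split, with replicates 1 and 2 below every cHet vagina pool and replicates 3 and 4 at about their level. The difference was -0.38 (SE 0.25, adjusted p = 0.851). Replicates 1 and 2 alone had -0.78, and replicates 3 and 4 alone had 0.020. Efna4, a class A ligand, had 7.04, 7.25, 7.34 and 7.58 in cKO vagina replicates 1 to 4, 7.65, 7.79, 7.34 and 7.55 in cHet vagina and 7.33, 7.00, 7.46 and 7.07 in cHet uterus. Its groups overlapped, with a difference of -0.28 (SE 0.15, adjusted p = 0.793), and the sets had -0.57 in replicates 1 and 2 and 0.011 in replicates 3 and 4.

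The remaining families held smaller differences, given for the gene with the lowest p of each. The Eph receptor Epha3 had a difference of 0.24 (SE 0.21, adjusted p = 0.905), and Ephb6, an Eph receptor that lacks kinase activity, had 0.088 (SE 0.15, adjusted p = 0.961). Ephb6 had 4.28, 4.99, 4.52 and 4.35 in cKO vagina replicates 1 to 4, 4.38, 4.41, 4.57 and 4.43 in cHet vagina and 4.23, 4.36, 4.29 and 4.33 in cHet uterus, and it was above background in 2 of 4 pools of each vaginal group and 0 of 4 uterus pools. The secreted Sema3f had -0.20 (SE 0.22, adjusted p = 0.930). Plxnb3, a plexin that binds Sema5a, passed background in 3 of 4 cKO pools but in 0 of 4 cHet vagina pools. Its fitted difference was 0.27 (SE 0.17, adjusted p = 0.826), with cHet vagina at background, and it was not called. Slit2, a secreted robo ligand, stood at 7.80, 7.36, 8.00 and 7.56 in cKO vagina replicates 1 to 4, 7.63, 7.38, 7.58 and 7.45 in cHet vagina and 7.69, 7.98, 7.61 and 7.50 in cHet uterus, and its groups overlapped (log2 difference 0.17, SE 0.16, adjusted p = 0.914). Ntn3, a netrin, had 0.27 (SE 0.18, adjusted p = 0.839).

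**Figure D2:**
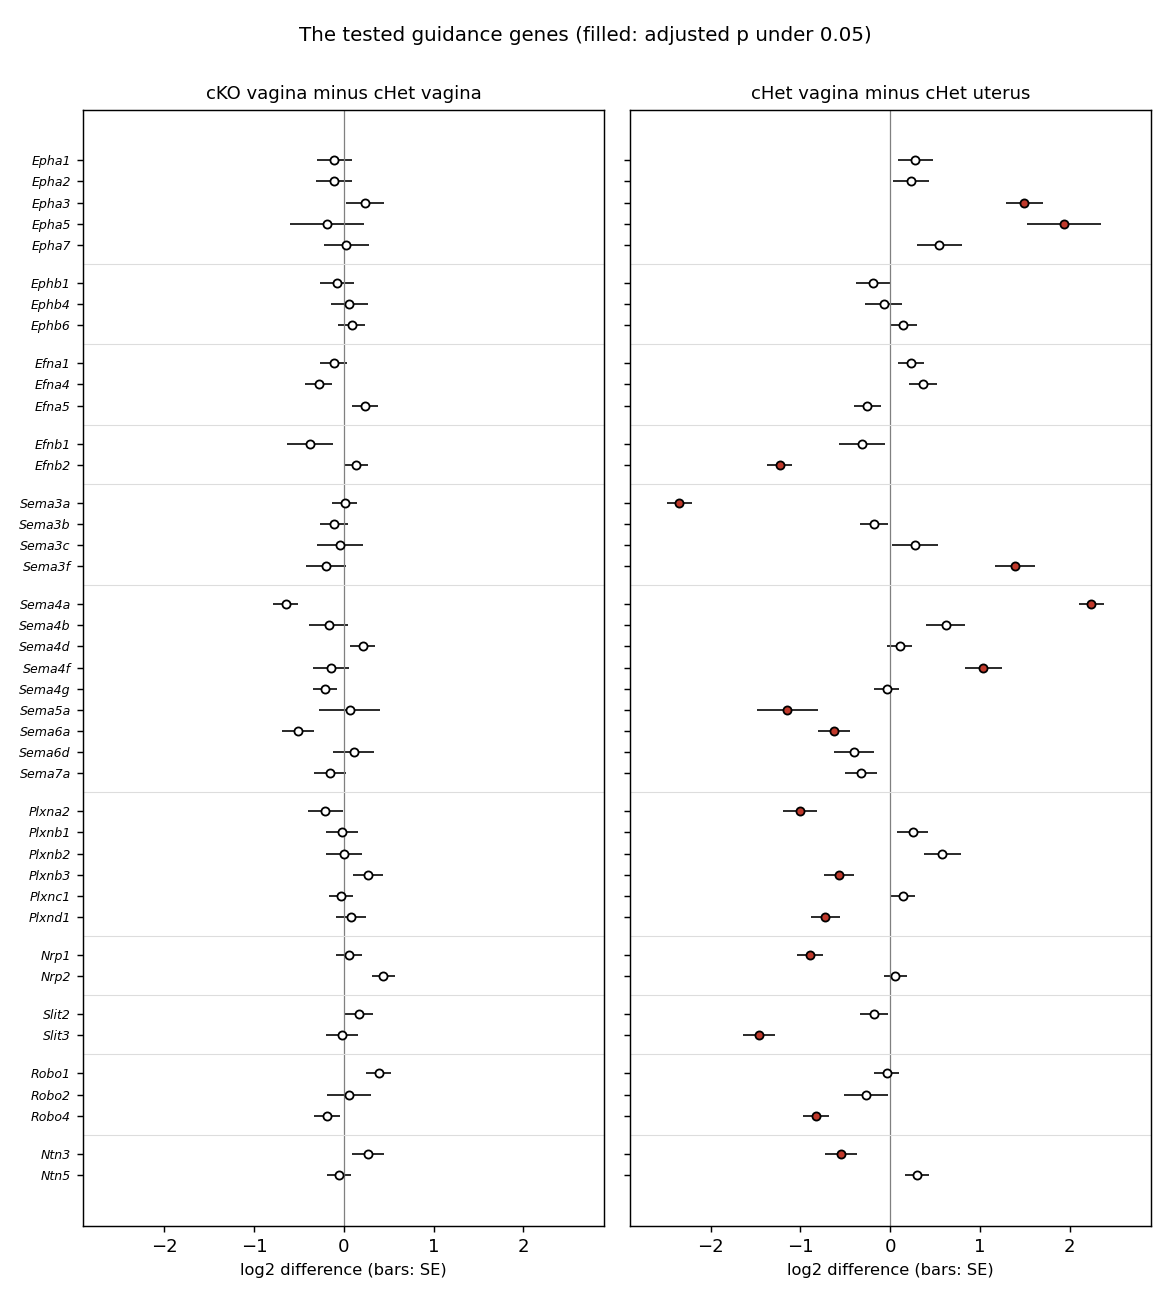
Log2 differences of the 41 tested guidance genes by family, with cKO minus cHet vagina at the left and cHet vagina minus cHet uterus at the right; bars are the SE of limma and filled points have an adjusted p under 0.05. No point is filled at the left, where values run from -0.65 to 0.44, and 16 are filled at the right, 5 above and 11 below zero.

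Setting cHet vagina against cHet uterus shows how the organs of the control genotype differ. Sema3a was the guidance gene with the largest difference, 5.10-fold lower in vagina, and Sema4a was 4.73-fold higher. Slit3, Efnb2, Sema5a, Plxna2, Nrp1, Robo4, Plxnd1, Sema6a, Plxnb3 and Ntn3 were also lower in vagina, and Epha5, Epha3, Sema3f and Sema4f were higher. In all 16 of 41 genes were called, 5 higher and 11 lower in vagina, against 18.4% of all genes tested, 9.33% higher and 9.04% lower. Without quantile normalization, which moved the median difference of all genes to 0.040, against -0.016 with it, the split was 6 higher and 8 lower. The groups did not overlap in 7 genes that were higher and 10 that were lower, and 10.7% of all genes did so in each direction. Of the 41 genes 21 had an unadjusted p under 0.05, against 28.6% of all genes. The median difference was -0.039, against -0.016 over all genes. Of the 41 genes 28 were above background on all 12 arrays and 6 on no array of at least 1 group, so a gene of 1 organ could pass the filter through that organ alone.

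**Figure D3:**
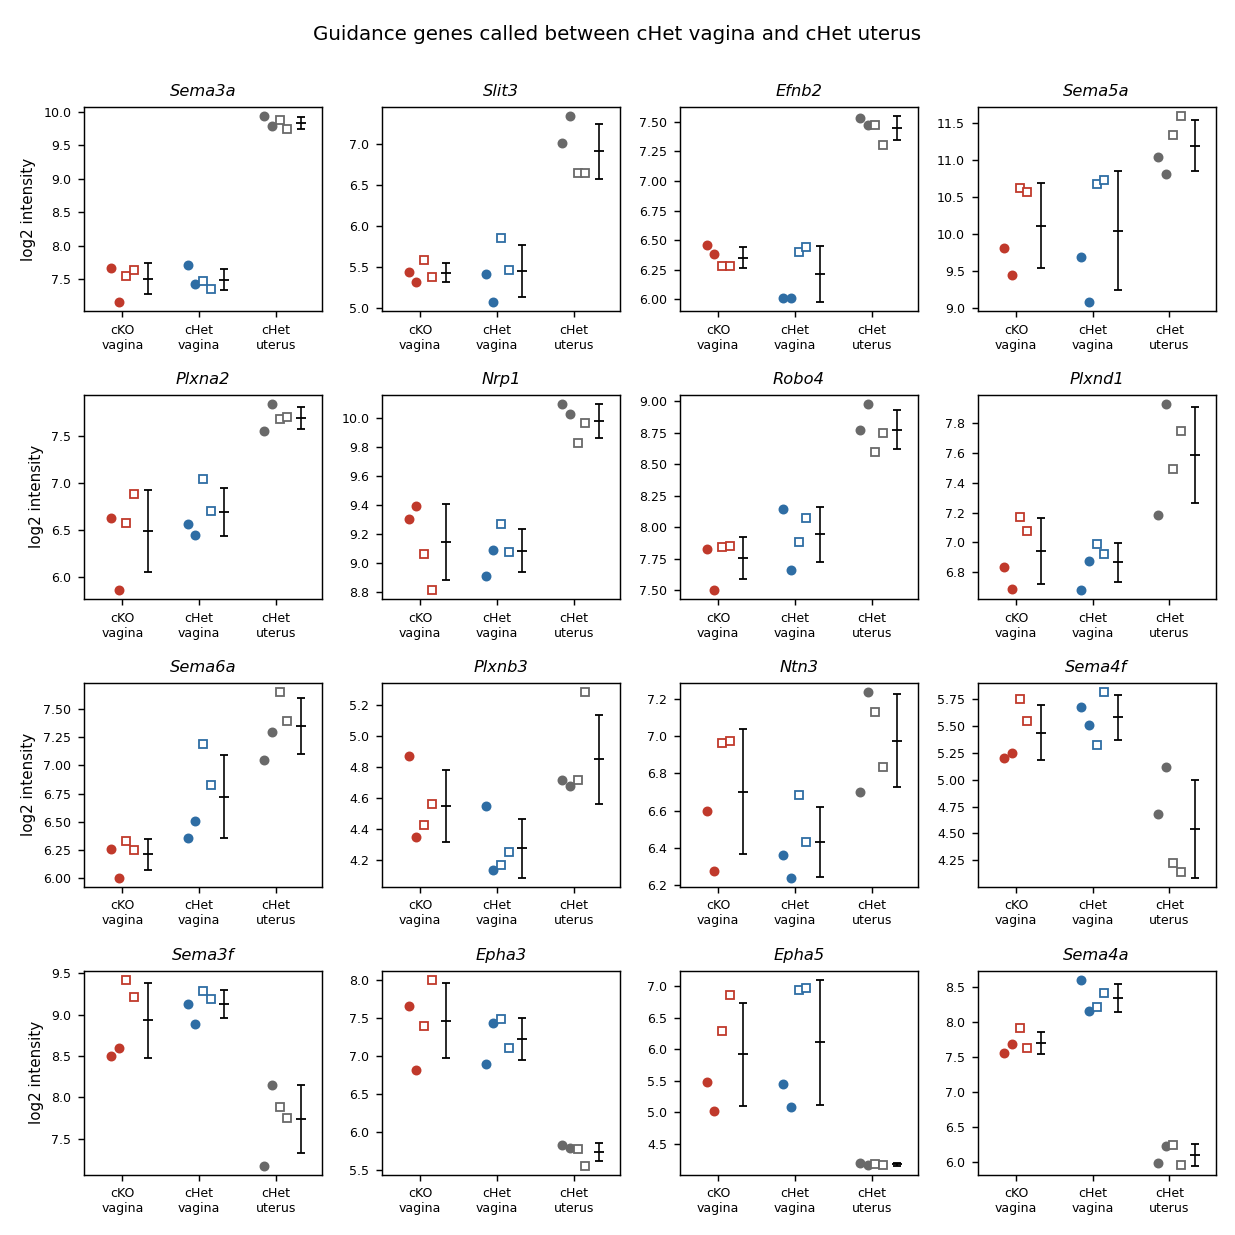
Log2 intensity per pool of the 16 guidance genes called between cHet vagina and cHet uterus, ordered by the difference, with cKO vagina at the left of each panel. Filled circles are replicates 1 and 2, open squares replicates 3 and 4, and black bars the mean and SD of 4 pools. Sema3a lies between 9.75 and 9.94 in every uterus pool and between 7.16 and 7.71 in the vaginal pools, and Sema4a lies in the other direction.

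Of the secreted class 3 semaphorins 4 of 7 were tested, and they differed in opposite directions. Sema3a, which repels axons through Nrp1 and plexins of class A, had 7.67, 7.16, 7.54 and 7.63 in cKO vagina replicates 1 to 4, 7.71, 7.43, 7.46 and 7.36 in cHet vagina and 9.94, 9.79, 9.88 and 9.75 in cHet uterus. The uterus pools lay far above both vaginal groups, which overlapped, and the cHet vagina minus uterus difference was -2.35 (SE 0.14, adjusted p = 7.58e-09). Sema3f, which acts through Nrp2, had 8.50, 8.60, 9.42 and 9.21 in cKO vagina replicates 1 to 4, 9.13, 8.89, 9.29 and 9.19 in cHet vagina and 7.17, 8.15, 7.88 and 7.75 in cHet uterus. Every vaginal pool lay above every uterus pool (log2 difference 1.39, SE 0.22, adjusted p = 0.000239). Sema3b and Sema3c, relatives of both, were not called, with -0.18 (adjusted p = 0.523) and 0.27 (adjusted p = 0.560).

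Of the other semaphorins 9 of 12 were tested. Sema4a, whose pools are given above, was higher in cHet vagina than in cHet uterus by 2.24 (SE 0.14, adjusted p = 1.42e-08). Sema4f, a membrane semaphorin of class 4, had 5.21, 5.25, 5.75 and 5.55 in cKO vagina replicates 1 to 4, 5.68, 5.51, 5.32 and 5.81 in cHet vagina and 4.68, 5.12, 4.22 and 4.14 in cHet uterus. It was above background in 2 of 4 uterus pools, and its difference was 1.04 (SE 0.20, adjusted p = 0.00146). In replicates 1 and 2 alone it was 0.69 (adjusted p = 0.0689), and in replicates 3 and 4 alone 1.39. Sema5a, a membrane semaphorin with thrombospondin repeats, had 9.81, 9.45, 10.62 and 10.56 in cKO vagina replicates 1 to 4, 9.68, 9.09, 10.68 and 10.73 in cHet vagina and 11.04, 10.81, 11.34 and 11.58 in cHet uterus. The uterus pools were highest, but in each vaginal group replicates 3 and 4 lay above replicates 1 and 2. The difference was -1.15 (SE 0.34, adjusted p = 0.0249). Sema6a, whose cHet vagina and uterus pools overlapped, had -0.63 (SE 0.18, adjusted p = 0.0214).

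Sema5a was no longer called without cHet vagina replicate 1 or 2 or cHet uterus replicate 3 or 4 (adjusted p = 0.0624 to 0.0850), nor was Sema6a without the same 4 pools (adjusted p = 0.0532 to 0.0772). Sema5a had -1.53 (adjusted p = 0.000642) with replicates 1 and 2 only and -0.76 (adjusted p = 0.00624) with replicates 3 and 4 only, and in these sets Sema6a had -0.74 and -0.51 (adjusted p = 0.0438 and 0.0704). With the sets as a block the adjusted p was 8.59e-05 for Sema5a and 0.00294 for Sema6a, and with the replicate number as a block it was 8.75e-05 and 0.00382. The highest adjusted p over the 25 alternatives was 0.0939 for Sema5a and 0.0940 for Sema6a. Sema4b, another membrane semaphorin, was not called (log2 difference 0.62, SE 0.22, adjusted p = 0.0629), but it was with the replicate number as a block (adjusted p = 0.0214). It was also called without cKO vagina replicate 2 or 3 or cHet vagina replicate 2 (adjusted p = 0.0230 to 0.0394). Sema7a, a semaphorin held by a lipid anchor, was above background in 2 of 4 cHet vagina pools and 3 of 4 uterus pools, and it was called without cHet uterus replicate 1 (adjusted p = 0.0431, against 0.245 with it). Sema4g and Sema6d had differences of -0.039 and -0.40, and Sema4d was above background in 0 of 4 uterus pools. These 3 genes were not called.

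Of the plexins, the receptors of semaphorins, 6 of 9 were tested and 3 were lower in vagina. Plxna2, which binds class 6 semaphorins and pairs with neuropilins, had 6.63, 5.87, 6.58 and 6.89 in cKO vagina replicates 1 to 4, 6.57, 6.45, 7.05 and 6.71 in cHet vagina and 7.56, 7.84, 7.69 and 7.71 in cHet uterus. All uterus pools were above all vaginal pools (log2 difference -1.01, SE 0.19, adjusted p = 0.00118). Plxnd1, a plexin of blood vessels, had 6.84, 6.69, 7.17 and 7.08 in cKO vagina replicates 1 to 4, 6.68, 6.88, 6.99 and 6.92 in cHet vagina and 7.19, 7.93, 7.49 and 7.75 in cHet uterus. The lowest uterus pool stood just above the highest vaginal pool (log2 difference -0.72, SE 0.17, adjusted p = 0.00511). In replicates 1 and 2 alone the adjusted p of Plxnd1 was 0.0649.

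Plxnb3 was dim, with 4.87, 4.35, 4.42 and 4.56 in cKO vagina replicates 1 to 4, 4.55, 4.13, 4.17 and 4.25 in cHet vagina and 4.71, 4.68, 4.71 and 5.28 in cHet uterus. It was above background in 0 of 4 cHet vagina pools and 4 of 4 uterus pools. Its level in cHet vagina is thus only a bound. With cHet vagina at its background level, its mean was 1.30-fold lower than that of the uterus (adjusted p = 0.0239 for the fitted difference). Over the alternatives the fitted difference ran from -0.79 to -0.19. It was not called without cHet vagina replicate 2, 3 or 4 or cHet uterus replicate 4 (adjusted p = 0.0535 to 0.0888). Nor was it called without background correction (adjusted p = 0.0644), with an offset of 50 (adjusted p = 0.0718) or without quantile normalization (adjusted p = 0.0626). In replicates 1 and 2 alone it had -0.36 (adjusted p = 0.466). Plxnb2, a plexin of many epithelia, was 0.58 higher in vagina (SE 0.20, adjusted p = 0.0564), and with the replicate number as a block its adjusted p was 0.0239. It was also called without cKO vagina replicate 2 (adjusted p = 0.0119) or cHet vagina replicate 1 (adjusted p = 0.0447). Plxnb1 and Plxnc1 had 0.25 and 0.14 and were not called.

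Nrp1, the co-receptor of Sema3a and of VEGF-A, had 9.31, 9.39, 9.06 and 8.81 in cKO vagina replicates 1 to 4, 8.91, 9.09, 9.27 and 9.07 in cHet vagina and 10.10, 10.03, 9.83 and 9.97 in cHet uterus. Its uterus pools were all above the vaginal pools, and the difference was -0.90 (SE 0.15, adjusted p = 0.000278). Nrp2 differed by 0.057 (SE 0.12, adjusted p = 0.825), with the uterus at background.

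Among slits and robos, Slit3 and Robo4 were lower in vagina. Slit3 had 5.44, 5.32, 5.59 and 5.37 in cKO vagina replicates 1 to 4, 5.42, 5.08, 5.85 and 5.46 in cHet vagina and 7.01, 7.34, 6.65 and 6.65 in cHet uterus. The uterus pools were all higher, by more in replicates 1 and 2 than in replicates 3 and 4 (log2 difference -1.46, SE 0.18, adjusted p = 1.91e-05, with -1.93 and -0.99 in the sets). Slit2 was not called (log2 difference -0.18, SE 0.16, adjusted p = 0.509). Robo4, a robo of endothelium, had 7.83, 7.50, 7.85 and 7.85 in cKO vagina replicates 1 to 4, 8.14, 7.66, 7.89 and 8.08 in cHet vagina and 8.77, 8.98, 8.60 and 8.75 in cHet uterus. All uterus pools were again highest (log2 difference -0.83, SE 0.14, adjusted p = 0.000526), while Robo1 and Robo2 had -0.037 and -0.27 and were not called (adjusted p = 0.904 and 0.545).

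Of the 5 ephrins tested 1 was called. Efnb2, a class B ephrin that marks arterial endothelium and is needed for septation of the caudal tract in mice, had 6.46, 6.39, 6.28 and 6.29 in cKO vagina replicates 1 to 4, 6.01, 6.01, 6.40 and 6.44 in cHet vagina and 7.53, 7.48, 7.48 and 7.31 in cHet uterus. The uterus pools were all above the vaginal pools, and the difference was -1.23 (SE 0.14, adjusted p = 5.80e-06). Its receptor Ephb4, a marker of venous endothelium, had 8.74, 8.82, 9.47 and 9.43 in cKO vagina replicates 1 to 4, 9.15, 8.72, 9.21 and 9.14 in cHet vagina and 8.75, 9.58, 8.98 and 9.21 in cHet uterus. Its groups overlapped, and its difference was -0.071 (SE 0.21, adjusted p = 0.874). Efnb1 had -0.31 (adjusted p = 0.479), Efna1 0.23 (adjusted p = 0.348), Efna4 0.37 (adjusted p = 0.125) and Efna5 -0.25 (adjusted p = 0.287).

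Of the 8 Eph receptors tested Epha3 and Epha5 were higher in vagina. Epha3, a receptor for class A ephrins, had 7.65, 6.82, 7.39 and 8.00 in cKO vagina replicates 1 to 4, 6.89, 7.43, 7.48 and 7.11 in cHet vagina and 5.82, 5.78, 5.77 and 5.55 in cHet uterus. No uterus pool reached a vaginal pool (log2 difference 1.49, SE 0.21, adjusted p = 6.54e-05). Epha5, a receptor best known from neurons, had 5.48, 5.02, 6.29 and 6.87 in cKO vagina replicates 1 to 4, 5.44, 5.08, 6.93 and 6.97 in cHet vagina and 4.19, 4.16, 4.17 and 4.15 in cHet uterus. It was above background in 4 of 4 pools of each vaginal group and 0 of 4 uterus pools. It passed the filter on dim probes only through the vaginal pools, so its separation from the uterus is no independent support for a difference. With the uterus at its background level, the cHet vagina mean was 3.07-fold higher (adjusted p = 0.00266 for the fitted difference). Over the alternatives the fitted difference ran from 0.81 to 2.79. Replicates 3 and 4 stood well above replicates 1 and 2 in both vaginal groups, and the fitted difference was 1.09 in replicates 1 and 2 and 2.79 in replicates 3 and 4.

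Epha7 had 8.96, 8.95, 8.76 and 9.14 in cKO vagina replicates 1 to 4, 8.34, 8.36, 9.67 and 9.33 in cHet vagina and 8.46, 8.09, 8.56 and 8.40 in cHet uterus, with 0.55 over all pools (SE 0.25, adjusted p = 0.155). In cHet vagina its replicates 1 and 2 lay within the uterus range and its replicates 3 and 4 above it. Within the sets it had 0.078 and 1.02, and without cHet vagina replicate 1 it was called (adjusted p = 0.0497). Epha1 and Epha2 had 0.28 and 0.24 and were not called. Ephb1, the class B receptor with the lowest p, had 4.91, 4.68, 5.17 and 4.98 in cKO vagina replicates 1 to 4, 5.01, 5.07, 4.63 and 5.35 in cHet vagina and 5.03, 5.74, 4.94 and 5.11 in cHet uterus, and its groups overlapped (log2 difference -0.19, SE 0.19, adjusted p = 0.586).

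Of the netrins 2 of 3 were tested. Ntn3 had 6.60, 6.28, 6.96 and 6.97 in cKO vagina replicates 1 to 4, 6.36, 6.24, 6.69 and 6.43 in cHet vagina and 6.70, 7.24, 7.13 and 6.83 in cHet uterus. The lowest uterus pool lay just above the highest cHet vagina pool, while the cKO pools overlapped both. The difference was -0.55 (SE 0.18, adjusted p = 0.0418), and it was lost without cKO vagina replicate 1, cHet vagina replicate 1, 2 or 4 or cHet uterus replicate 2, 3 or 4 (adjusted p = 0.0508 to 0.121). Adjusted over all kept probes the adjusted p was 0.0528. Ntn3 was also not called without background correction (adjusted p = 0.0511), without quantile normalization (adjusted p = 0.0910) or without the filter on dim probes (adjusted p = 0.0754). Neither set alone called it, with adjusted p = 0.0968 in replicates 1 and 2 and 0.113 in replicates 3 and 4. Ntn5 stood above background in 1 of 4 uterus pools and had 0.30 (SE 0.13, adjusted p = 0.157).

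Without a single pool the number of called genes lower in vagina was as low as 7, without cHet vagina replicate 2 or without cHet uterus replicate 4, against 11 with all pools. The number of higher genes was 5 to 7. Of the 16 called genes 10 kept their call under all 25 alternatives that could test them, namely Sema3a, Slit3, Efnb2, Plxna2, Nrp1, Robo4, Sema4a, Sema3f, Epha3 and Epha5. Of these Epha5 passed the filter on dim probes only through the vaginal pools, and 24 of the alternatives tested it.

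Several genes had over 1 probe above background, which gave a further reading of the same RNA. For 20 guidance genes with over 1 such probe, all probes had 1 sign in 14 genes between cHet vagina and uterus. They did so in 10 between cKO and cHet vagina and in 13 between cKO vagina and cHet uterus. The other Sema3a probe had -0.69, the other Slit3 probe -0.76, the other Sema3f probe 1.28 and the other Sema4f probe 0.83. Nrp1 probes had -0.63 and -0.95 beside -0.90, and Plxnd1 probes -0.61 and -0.18 beside -0.72. The signs differed for Epha3, where the other probes were above background on 7 and 4 arrays and had -0.045 and 0.13, and for Sema5a, where 1 probe had -1.17 and a probe above background on 4 arrays had 0.079. The 3 other Epha5 probes, above background on 4, 5 and 7 arrays, had 0.27, 0.58 and 0.84 beside 1.94. None of them was called by limma adjusted over all kept probes (adjusted p = 0.230, 0.0712 and 0.0587). Between cKO and cHet vagina another Nrp1 probe had -0.67 where the one that stands for the gene had 0.060, and neither was called. Between cKO vagina and cHet uterus the signs differed for 3 called genes. Sema6a probes had -0.18 and 0.069 beside -1.14, Plxnd1 probes -0.54 and 0.028 beside -0.65, and Sema5a probes -0.99 and 0.098 beside -1.08.

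**Figure D4:**
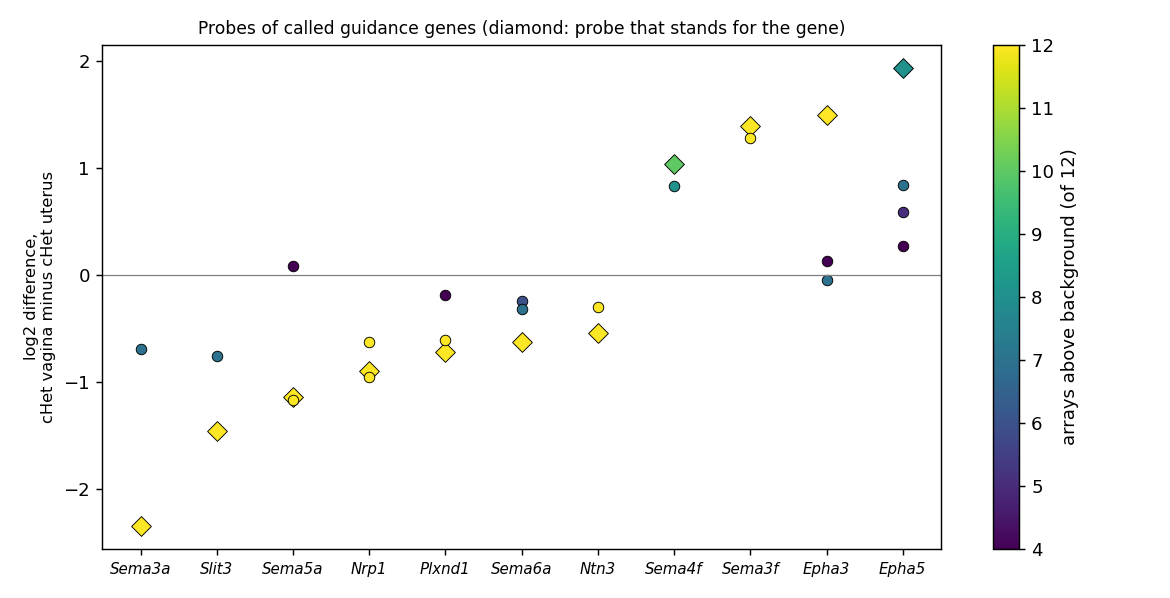
Log2 difference of cHet vagina minus cHet uterus for every kept probe of the called guidance genes with over 1 kept probe. Diamonds are the probes that stand for a gene, circles its other probes, and colour gives the number of the 12 arrays on which a probe was above background. Probes of Sema3f lie at 1.28 and 1.39, while those of Epha3 lie at -0.045, 0.13 and 1.49.

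The contrast of cKO vagina with cHet uterus shares the uterus pools with the comparison above and the cKO pools with the first, so its values are set beside them and are no independent repeat. It called 15 of 41 guidance genes, 6 higher and 9 lower in cKO vagina, against 18.2% of all genes, 8.83% higher and 9.33% lower. The groups did not overlap in 8 genes that were higher and 9 that were lower, against 10.4% and 11% of all genes, and 21 had an unadjusted p under 0.05, against 28.8% of all. Without quantile normalization, where the median difference of all genes was 0.168, the split was 9 higher and 7 lower. Among the lower genes Sema3a had -2.34, Slit3 -1.48, Plxna2 -1.21, Sema6a -1.14, Efnb2 -1.10, Sema5a -1.08, Robo4 -1.02, Nrp1 -0.84 and Plxnd1 -0.65. Their adjusted p ran from 7.57e-09 for Sema3a to 0.0342 for Sema5a. The cHet vagina had -0.63 for Sema6a, and the direct comparison of the vaginas did not call it.

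Among the higher genes Epha3 had 1.73 (adjusted p = 1.61e-05), Sema4a 1.59 (adjusted p = 6.34e-07), Sema3f 1.19 (adjusted p = 0.00103) and Sema4f 0.90 (adjusted p = 0.00484). The cHet vagina had 2.24 for Sema4a, and again the direct comparison of the vaginas did not call it. With the uterus at its background level, the cKO mean of Epha5 was 2.69-fold higher (adjusted p = 0.00603 for the fitted difference). That of Nrp2 was 1.17-fold higher (adjusted p = 0.00915 for the fitted difference). Over the alternatives these fitted differences ran from 0.69 to 2.42 for Epha5 and from 0.16 to 0.66 for Nrp2. Nrp2 passed the filter on dim probes only through its cKO pools, and Epha5 only through the vaginal pools. The call of Epha5 was lost without background correction (adjusted p = 0.0688) and with an offset of 50 (adjusted p = 0.0541). That of Nrp2 was lost with 75th percentile scaling (adjusted p = 0.129). It was also lost with replicates 1 and 2 alone (adjusted p = 0.0615) and with replicates 3 and 4 alone (adjusted p = 0.157). In replicates 1 and 2 alone Sema4f had 0.33 (adjusted p = 0.444) and Sema3f 0.89 (adjusted p = 0.0544), neither called. In replicates 3 and 4 both were called, with 1.47 for Sema4f. Plxnd1 was not called without quantile normalization (adjusted p = 0.120), with replicates 1 and 2 alone (adjusted p = 0.0586) or with replicates 3 and 4 alone (adjusted p = 0.0506). Sema5a was lost without cKO vagina replicate 1 or 2 or cHet uterus replicate 1, 3 or 4 (adjusted p = 0.0516 to 0.114). Its call was also lost without background correction (adjusted p = 0.0644) and with an offset of 50 (adjusted p = 0.0577). The same held without quantile normalization (adjusted p = 0.0503) and without the filter on dim probes (adjusted p = 0.117).

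Other genes passed under some settings of this comparison. Efnb1, at -0.69 (adjusted p = 0.0740), was called without cKO vagina replicate 3 or cHet uterus replicate 1 (adjusted p = 0.0147 and 0.0128), and with all pools under the set block (adjusted p = 0.0292) and the replicate block (adjusted p = 0.0350). Plxnb2, at 0.59 (adjusted p = 0.0556), was called without cKO vagina replicate 3 or 4, cHet vagina replicate 2 or cHet uterus replicate 1 (adjusted p = 0.0406 to 0.0499), and with all pools under the set block (adjusted p = 0.0273) and the replicate block (adjusted p = 0.0233). Sema7a, above background in 0 of 4 cKO pools, was called without cHet uterus replicate 1 (adjusted p = 0.00949) and under the set block (adjusted p = 0.0428). In families without a call the gene with the lowest p is given. Efna1, a class A ephrin, had 6.34, 6.55, 6.35 and 6.51 in cKO vagina replicates 1 to 4, 6.83, 6.31, 6.37 and 6.68 in cHet vagina and 6.29, 6.39, 6.07 and 6.52 in cHet uterus. Its groups overlapped, with 0.12 (SE 0.15, adjusted p = 0.663). Ntn5, a netrin, had 4.62, 4.63, 4.57 and 4.72 in cKO vagina replicates 1 to 4, 4.95, 4.59, 4.47 and 4.76 in cHet vagina and 4.32, 4.35, 4.30 and 4.61 in cHet uterus, and its cKO and uterus pools overlapped (log2 difference 0.24, SE 0.13, adjusted p = 0.261). Ephb6, with the uterus at background, had a fitted 0.23 (SE 0.15, adjusted p = 0.343) and was not called.

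Genes that carry guidance signals inside the cell or join the receptors were read from a list of 49, of which 33 were tested. Between cHet vagina and uterus 6 were higher and 4 lower, or 30.3% called, against 18.4% of all genes (9.33% higher and 9.04% lower). Their median was 0.031, against -0.016 over all genes. Srgap3, a GTPase activator that binds robos, was higher by 1.27, the exchange factors Vav3 and Vav2 of Eph signalling by 1.28 and 0.65, Ngef (ephexin) by 0.89, Tiam1 by 0.62 and Lrig1 by 1.51. Flrt3, an Unc5 and latrophilin ligand, was lower by 2.10, Arhgef15, an exchange factor of vessels, by 0.83, Nrcam by 0.62 and Farp2, an exchange factor of plexin A signalling, by 0.59. Between cKO and cHet vagina 0 of 33 were called by limma, and 3 had an unadjusted p under 0.05, against 0.381% and 7.07% of all genes. Vav3 came closest, with -0.75 (adjusted p = 0.0511). Of the netrin receptors Dcc, Neo1, Unc5b and Unc5c, none of which was called in any of the 3 comparisons, cHet vagina minus uterus differences were 0.10, 0.23, -0.083 and 0.37. The Dcc probe was dim, above background in 1 of 4 cKO vagina, 3 of 4 cHet vagina and 1 of 4 uterus pools.

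Markers of other cell types differed between the organs as well, where 9.33% of all genes were called higher and 9.04% lower in cHet vagina. Of 12 endothelial markers 11 were tested, 7 were lower and 0 higher in cHet vagina than in cHet uterus, and their summed intensity was 1164 to 1733 in cKO vagina, 1220 to 1879 in cHet vagina and 2775 to 3634 in cHet uterus. Of the 11 tested 4 were not called, 1 of them with a positive difference. Robo4, Plxnd1, Nrp1 and Efnb2 are genes of endothelium and were lower in cHet vagina as well. Ephb4, a marker of venous endothelium, was not called (log2 difference -0.071, adjusted p = 0.874). The part of the endothelial markers in these values was not tested. Of 12 epithelial markers 11 were higher in cHet vagina, with summed intensities of 7213 to 11916 in cKO vagina, 8601 to 13410 in cHet vagina and 3792 to 4548 in cHet uterus. Their part in the higher Sema4a, Sema3f, Sema4f, Epha3 and Epha5 was not tested. Of 7 smooth muscle markers tested 2 were higher and 1 lower in cHet vagina, of 8 stromal markers 1 was higher and 1 lower, and of 5 leukocyte markers 3 were lower. Of 3 red blood cell markers tested 1, Hba-a1, was lower in cHet vagina (log2 difference -0.96, adjusted p = 0.0143), and their summed intensity was 7713 to 10276 in cHet vagina and 14640 to 20757 in cHet uterus. The part of these cells in the organ differences was not tested.

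Of 12 markers of nerve and Schwann cells 9 were not above background on enough arrays to be tested. Sox10 and Ret were higher in cHet vagina by a fitted 1.01 and 1.65, with the uterus at background in all 4 pools, and the part of such cells in the results was not tested. Between cKO and cHet vagina no member of the endothelial, epithelial or nerve lists was called by limma. Of these lists 0, 2 and 0 members had an unadjusted p under 0.05, against 7.07% of all genes. The 6 markers of the vagina or distal tract, Trp63 among them, had a summed intensity of 2368 to 3164 in cKO vagina and 3618 to 5065 in cHet vagina, which did not overlap. None of them was called by limma, and 3 had an unadjusted p under 0.05. Krt14 and Krt5, keratins of basal cells in stratified epithelium, had -2.15 (adjusted p = 0.139) and -1.12 (adjusted p = 0.188), and Hoxd13 had 0.58 (adjusted p = 0.409). The part of these markers in the values of Sema4a was not tested. The summed intensity of red blood cell markers was 9706 to 30006 in cKO vagina and 7713 to 10276 in cHet vagina, and that of skeletal muscle markers was 82.9 to 1549 in cKO vagina and 79.8 to 666 in cHet vagina. Their part in the cKO and cHet vagina values was not tested.

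The 19 guidance genes that were not tested were Epha4, Epha6, Epha8, Epha10, Ephb3, Efna2, Efna3, Efnb3, Sema3d, Sema3e, Sema3g, Sema4c, Sema6b, Sema6c, Plxna1, Plxna3, Plxna4, Slit1 and Ntn4. Each had a probe above background on 0 to 3 of the 12 arrays. Efnb3 came nearest, in 2 of 4 cHet vagina pools and 1 of 4 uterus pools. No level or difference is given for them, and a dim probe does not show that a gene was silent.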

How the data were processed

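Intensity per probe was deposited by the authors on a linear scale, and its columns shared a mean of 248.3 to 252.2, so the arrays had been scaled to each other. No source used here gives the step that did so. A second deposited table, with 24 columns of per-sample values (12 signals) whose names match no label, was not used. Of each array's intensities the mode below the 75th percentile was taken as background, and normexp (limma 3.58.1, R 4.3.3) with an offset of 16, quantile normalization and log2 followed. Probes above the 99% background level on at least 4 of 12 arrays were kept, 21093 in all, and each gene was read from its brightest kept probe. Gene symbols came from the platform annotation, which named 1 gene for 34885 probes, several for 18 and none for 10378.

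Groups were compared with lmFit and eBayes over all 12 arrays, which shared 1 estimate of the spread, two-sided, with Benjamini-Hochberg adjustment over 11297 genes and calls under 0.05. Precision is limited by the number of arrays. A fold against a group at background takes the dim group at its background level, and it allows for no spread among pools or settings. The members and lists were chosen with earlier results of these data known. Values are given per pool for up to 4 called genes of a family with the largest differences in a comparison, or, where none was called, for its gene with the lowest p. Further genes were named after their values were seen. Promoters were searched for motifs on both strands. The fits were tested on simulated data with independent normal values and known changes between cKO and cHet vagina. They recovered 11.9% of log2 changes of 0.5, 80.6% of 1 and 98.5% of 2, and 7 of 134 calls were false.

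Same-numbered pools of cHet vagina and cHet uterus deviated together (correlations 0.116 to 0.429), every pair being over 0.1, but the main fit did not pair them. The fit with the replicate number as a block is given where it changed a call. Only 4 of 8 of these pools correlated best with their own number, so the pairing is uncertain, and the calls counted are from the fit without it. The part of the replicate sets in these correlations was not tested. Between cKO and cHet vagina 3 of 4 pairs were over 0.1 (0.0662 to 0.489), and between cKO vagina and cHet uterus 3 of 4 (0.0727 to 0.309). There too the calls counted are from the fit without pairs. The 25 alternatives varied background, offset, normalization, probe filter, adjustment, blocks and pools, and 1 of them, background taken on the log2 scale, was chosen after seeing the data.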

Additional observations from a re-analysis of the deposited data

Results flagged for a closer look

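In 75 groups of 4 pools, those of 25 named genes, 2 pools stood apart from the other 3 of their group by a gap above Dixon's critical value for the share of the range. Chance flags about 1 in 20 groups. Plxnb3 stood at 5.28 in cHet uterus replicate 4, against 4.68 to 4.71 in the other uterus pools, a gap of 0.940 of the range. Robo4 stood at 7.50 in cKO vagina replicate 2, against 7.83 to 7.85 in the other cKO pools, a gap of 0.932 of the range.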

How the results depend on the processing

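Between cHet vagina and cHet uterus the guidance genes called were 5 higher and 11 lower, and 10 of these 16 calls held under every one of the 25 alternatives that tested them. Between cKO vagina and cHet uterus 9 of 15 did. When 1 pool was left out, 5 to 7 were higher and 7 to 12 lower in cHet vagina than in cHet uterus, 6 to 7 higher and 8 to 10 lower in cKO vagina than in cHet uterus, and 0 were called between cKO and cHet vagina. With only genes above background on all 12 arrays, which left 28 of 41, there were 3 higher genes in each comparison with the uterus. With replicates 1 and 2 alone 3 were higher in cKO vagina than in cHet uterus, and with replicates 3 and 4 alone 8 were higher in cHet vagina than in cHet uterus, both with fewer pools.

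Between cKO and cHet vagina 1 gene, Sema4a, was lower without background correction, with an offset of 50 and when the replicate sets entered as a block, against 0 otherwise, and the cause was not tested. No difference that reversed was called. With replicates 3 and 4 alone Efna4 had 0.011, Efnb1 0.020, Sema3f 0.073 and Ephb6 -0.065, and Ephb6 had -0.0059 with 75th percentile scaling and -0.064 without cKO vagina replicate 2 (up to 0.17 with another pool left out). The median of all genes moved to 0.115 between cKO and cHet vagina and to 0.168 between cKO vagina and cHet uterus without quantile normalization, and to -0.11 in the second with 75th percentile scaling.

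The replicate block, with the number as a term, called 7 genes higher and 11 lower in cHet vagina than in cHet uterus. Plxnb2 and Sema4b were gained, and the block changed no other call there. The same block gave 7 higher and 10 lower between cKO vagina and cHet uterus, with Plxnb2 and Efnb1 gained, and between cKO and cHet vagina Sema4a had an adjusted p of 0.061. In these last comparisons, 3 of 8 and 4 of 8 pools correlated best with their own number, and between cHet vagina and cHet uterus 4 of 8 did. Dim probes set the limit of what was measured, with 19 of 60 genes not tested.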
